A study of Mus musculus with 2 samples.

Results

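Adherens junctions hold neighbouring epithelial cells together through classical cadherins, whose cytoplasmic tails bind β-catenin or plakoglobin, and through these α-catenin and the actin skeleton, while p120-catenin binds the cadherin close to the membrane. The pool of β-catenin that is not bound to cadherin is marked for degradation by a complex that contains APC and the kinase GSK3β, and what escapes enters the nucleus and acts with TCF/LEF factors on Wnt target genes. In the prostate, E-cadherin is shared by luminal and basal epithelium, and P-cadherin is known as a cadherin of basal cells.

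The level of 10 genes of this system was examined, all 10 of which had a row among the 28000 features of both libraries: the cadherins Cdh1 and Cdh3, the catenins Ctnnb1, Jup, Ctnna1 and Ctnnd1, the degradation complex genes Apc and Gsk3b, and the adhesion molecules Epcam and Cd44. They were chosen by name and by what they are known to do. The libraries are 3′ single-cell RNA libraries of prostate tumour tissue, 1 per genotype. DoubleTg mice (hHGFtg:H11hMET/+:PBCre4) carry a human HGF transgene that is expressed everywhere and a human MET transgene in the H11 locus, which Cre recombinase switches on. TripleTg mice (hHGFtg:H11hMET/+:Ctnnb1L(Ex3)/+:PBCre4) carry in addition 1 allele of Ctnnb1 whose exon 3 lies between loxP sites. Both transgenes and the Cre are thus common to both groups, and no library without them was analysed here. The Cre is driven by the probasin promoter, which is active in prostate epithelium, so neither change is expected in stromal or immune cells. The background is a mix of C57BL/6 and C3H SCID, and the age of the mice used for each library is not given in the sources used here. The labels call the DoubleTg tissue prostatic adenocarcinoma and the TripleTg tissue prostatic carcinoma.

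The exon that Cre removes from the TripleTg allele is shown here because it carries the sites through which the degradation complex acts. Ctnnb1 (ENSMUSG00000006932) lies on chr9:120929216-120960507 of GRCm38, plus strand, and exon 3 of the 15 exons of its transcript ENSMUST00000007130 lies at chr9:120950522-120950749, wholly in coding sequence. Its 228 bases are a whole number of codons (76), so its loss keeps the reading frame. Capitals mark the codons of residues 33, 37, 41 and 45, the serines and the threonine that GSK3β and casein kinase 1 are known to phosphorylate, numbered from the first methionine of the 781-residue protein.
Ctnnb1 exon 3: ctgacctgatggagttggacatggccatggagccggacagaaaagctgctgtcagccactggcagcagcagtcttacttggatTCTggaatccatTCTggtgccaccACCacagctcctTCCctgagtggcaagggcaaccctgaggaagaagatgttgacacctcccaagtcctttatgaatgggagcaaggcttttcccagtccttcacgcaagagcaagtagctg

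This exon ends 3095 bases before the 3′ end of the 3623-base transcript. The libraries count 3′ ends, so the Ctnnb1 count reads transcripts of the normal and of the deleted allele alike, says nothing of how much β-catenin protein is present, and does not check the genotype label. Genes of the Wnt response do bear on the label. Axin2, a negative feedback gene of Wnt signalling, was at 0.235 to 6.57 CPM over the 10 luminal-like clusters of the DoubleTg library and at 56.5 to 109.9 CPM over the 7 of the TripleTg library, and Nkd1, another feedback gene, was at 0 to 11.5 and at 43.8 to 90.0 CPM. CPM is the UMIs (unique transcript molecules) of a gene per 1000000 UMIs of the class or cluster. The human MET transgene, hMETtg, was at 90.0 to 799 CPM over the DoubleTg luminal-like clusters and at 15.5 to 32.4 CPM over those of the TripleTg library. The cluster ranges of Axin2, of Nkd1 and of hMETtg did not overlap between the libraries.

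The other members lie on chr8:106603351-106670246 (Cdh1) and chr8:106510891-106557297 (Cdh3), which are neighbouring cadherin genes on the plus strand, on chr18:35118859-35254779 (Ctnna1), chr2:84600071-84650765 (Ctnnd1, minus strand), chr11:100368958-100397763 (Jup, minus strand), chr17:87635979-87651129 (Epcam), chr2:102811141-102901665 (Cd44, minus strand), chr18:34220924-34322552 (Apc) and chr16:38089001-38246084 (Gsk3b). RefSeq promoter sequence on GRCm38.p6 was at hand for 6 members: Ctnnb1, Ctnnd1, Jup, Epcam, Cd44 and Gsk3b. None of them held the core letters of the TCF/LEF motif (the word CTTTGAA, its variant CTTTGAT, the form CTTTGTA and also CTTTGTT) on either strand of the 300 bases around the start, against 16.9% of the 32851 promoters in the set. This says only that these letters are not in this window.

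The DoubleTg library held 12072 cells, of which 10598 passed the study's limits on genes and mitochondrial reads, and all 9492 TripleTg cells passed. Median depth was 16761 and 20097 UMIs per cell. The libraries shared 30 cell barcodes, 0.249% and 0.316% of each. Clusters named luminal-like by the share of cells with luminal markers held 5029 DoubleTg and 4171 TripleTg cells (median 35465 and 25586 UMIs). Those named basal-like, by the fold of basal markers over the other cells of their library, held 1878 and 1282 (median 12694.5 and 21452 UMIs). The basal rule is thus relative to the cells that each library holds. Seminal vesicle-like clusters held 127 and 586 cells. Of the 11 luminal markers, 9 in the DoubleTg and 8 in the TripleTg class were seen in at least 0.5 of the cells, and of the 8 basal markers 7 and 6. The summed basal marker level was lower in the TripleTg basal-like class (5072 CPM) than in the DoubleTg one (15349 CPM), so these classes are not alike in their markers. The 11 luminal markers summed to 6574 CPM in the DoubleTg and 6478 CPM in the TripleTg basal-like class, and in the latter they exceeded the basal markers. A TripleTg cluster of 581 epithelial cells led by Tchh, with the hair follicle keratin Krt73 among its 10 leading genes, was kept out of the luminal-like class. With 1 library per genotype there is no test between genotypes: every interval below is a 95% interval for counting error only, and differences between genotypes, mice and library preparations cannot be told apart.

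Cdh1 encodes E-cadherin. In luminal-like cells it was at 528 CPM (interval 525 to 531) in the DoubleTg library and at 282 CPM (279.5 to 285) in the TripleTg library, and in basal-like cells at 470.4 and 307 CPM. It was lower in TripleTg cells in both classes, by 1.87-fold and 1.53-fold. At a fixed depth of 5000 UMIs per cell, 86.3% of DoubleTg and 70.7% of TripleTg luminal-like cells had a Cdh1 UMI, against 14.8% and 16.7% of macrophage-like cells, which should not express it (median depth 10324 and 10034 UMIs before thinning). The seminal vesicle-like class lay between these, at 247 and 193 CPM. In fibroblast-like, macrophage-like and dendritic-like cells Cdh1 was at 31.6 to 78.9 CPM. The TripleTg fibroblast-like value (78.9 CPM) was carried by a shallow cluster of 310 cells led by Apod (median 3612 UMIs, 142 CPM), beside 38.4 and 34.3 CPM in the remaining clusters. Cdh1 was at 199 and 113 CPM in smooth muscle-like cells, at 135 and 61.0 CPM in endothelial-like cells and at 190.4 CPM in the T/NK-like cells of the DoubleTg library. The 10 epithelial markers summed to 5806, 3780 and 5171 CPM in these 3 DoubleTg classes, against 753 CPM in the macrophage-like cells. The part of free RNA and of doublets in these values was not tested.

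Cdh3 encodes P-cadherin, and of the 10 members its class level differed most between basal-like and luminal-like cells. In the DoubleTg library it was at 31.9 CPM (29.8 to 34.1) in basal-like and 0.495 CPM (0.402 to 0.603) in luminal-like cells, and in the TripleTg library at 15.5 CPM (14.2 to 17.0) and 0.182 CPM (0.115 to 0.272). The luminal-like values rest on 98 and 23 UMIs, and ran from 0.117 to 4.24 CPM over the DoubleTg and from 0.0374 to 3.11 CPM over the TripleTg luminal-like clusters. Macrophage-like cells, which should lack the gene, had 2 UMIs in the DoubleTg library (0.619 CPM, interval 0.0750 to 2.24) and 0 in the TripleTg library (interval up to 0.702 CPM). The luminal-like class means cannot be told apart from these levels. At 5000 UMIs, 14.2% of DoubleTg and 8.57% of TripleTg basal-like cells had a Cdh3 UMI, against 0.228% and 0.0985% of luminal-like cells. Fibroblast-like cells had 5.73 and 5.70 CPM, and 1 of the TripleTg fibroblast-like clusters (153 cells) had 12.1 CPM (7.68 to 18.2), beside 5.26 CPM in the lowest TripleTg basal-like cluster. A DoubleTg cluster of 50 epithelial cells led by Atp6v1g3 and Foxi1, which took no sub-class name, had Cdh3 at 35.2 CPM, beside 23.3 and 34.1 CPM in the basal-like clusters of that library. That cluster was singled out after its values were seen.

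Epcam encodes an epithelial adhesion molecule that is not a cadherin. It was at 2395 CPM in DoubleTg and 1722 CPM in TripleTg luminal-like cells, and at 2314 and 1305 CPM in basal-like cells, so that it was lower in the TripleTg library in both classes. Nearly every luminal-like cell had an Epcam UMI at 5000 UMIs, 99.6% in the DoubleTg and 99.4% in the TripleTg library. Among basal-like cells this share was 99.8% and 90.1%. Macrophage-like cells, which should lack it, had 105 and 145 CPM and a share of 29.2% and 34.0%. Epcam was at 873 and 500.4 CPM in smooth muscle-like and 534 and 312 CPM in endothelial-like cells, and at 663 CPM in DoubleTg T/NK-like cells, all above the macrophage-like level. Fibroblast-like cells had 104 CPM in the DoubleTg library, about the macrophage-like level. The 482 CPM of the TripleTg fibroblast-like class came mostly from its shallow Apod-led cluster (986 CPM), beside 127 and 143 CPM in the remaining clusters.

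Ctnnb1 itself was lower in the TripleTg library. It was at 312 CPM (309 to 314) in DoubleTg and 236 CPM (234 to 239) in TripleTg luminal-like cells, and at 369 and 301 CPM in basal-like cells. In the DoubleTg library the highest class was endothelial-like at 732 CPM (696 to 768), followed by basal-like (369) and luminal-like (312). Smooth muscle-like (211), fibroblast-like (209.7) and T/NK-like cells (201) came next with overlapping intervals, and then macrophage-like (133), seminal vesicle-like (120.5) and dendritic-like cells (114), whose neighbours in this order again overlapped. In the TripleTg library the order began with endothelial-like (393) and basal-like cells (301), followed by the hair follicle gene-led cluster (247, interval 240.4 to 254) and luminal-like cells (236). It ended with seminal vesicle-like cells (68.4 CPM), which did not differ from dendritic-like cells (76.6, interval 55.2 to 103.5) beyond counting error.

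The plot of levels by class sets the 10 members side by side, each on its own scale, since levels of different genes are not compared here.

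**Figure D1:**
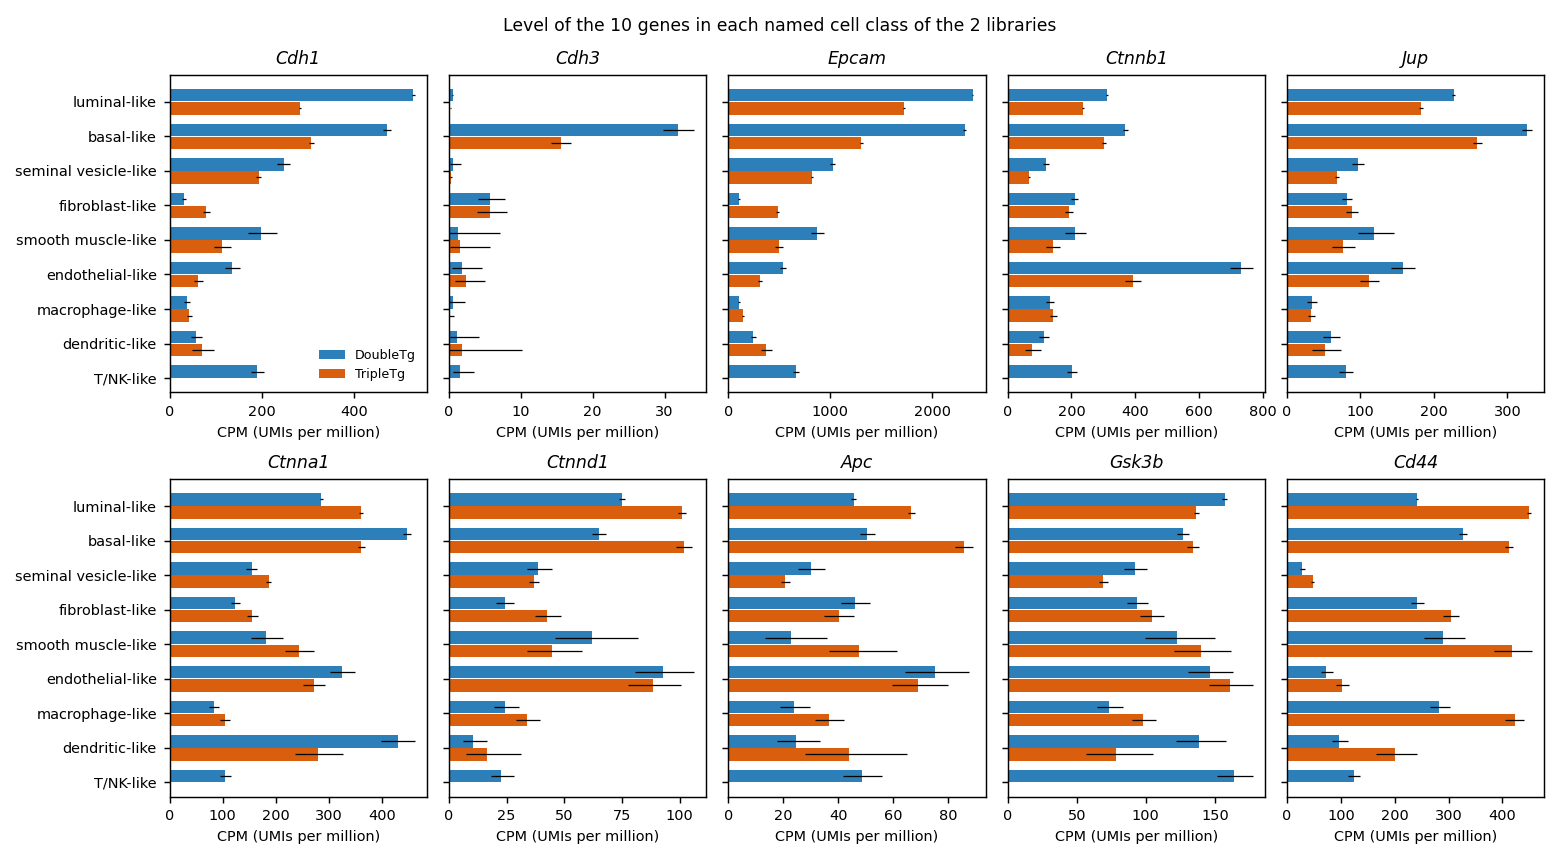
Level of each gene (horizontal axis, CPM, from 0) in each named cell class (rows) of the DoubleTg (blue) and TripleTg (orange) library; bars are sums over all cells of the class and lines 95% exact Poisson intervals, no TripleTg cluster was T/NK-like, and the hair follicle gene-led cluster is not drawn. Cdh3 stands out in basal-like cells (31.9 and 15.5 CPM), Ctnnb1 is highest in endothelial-like cells (732 and 393 CPM), and Cd44 is lowest in seminal vesicle-like cells (27.9 and 47.6 CPM).

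Jup encodes plakoglobin, a catenin of adherens junctions and desmosomes that can take the place of β-catenin at the cadherin. It was at 227 CPM in DoubleTg and 182 CPM in TripleTg luminal-like cells and at 327 and 259 CPM in basal-like cells, higher in basal-like than in luminal-like cells of both libraries. Ctnna1 encodes α-catenin, the link to actin. Its DoubleTg level was higher in basal-like (447 CPM) than in luminal-like cells (286 CPM), whereas in the TripleTg library both classes were at 361 and 360.3 CPM. Ctnna1 was also at 429.6 CPM in the DoubleTg dendritic-like cells (96 cells) and at 279 CPM in the TripleTg ones (47 cells).

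Ctnnd1 encodes p120-catenin, which keeps cadherin at the cell surface. It was at 74.97 CPM in DoubleTg and 101 CPM in TripleTg luminal-like cells and at 65.0 and 102 CPM in basal-like cells, higher in the TripleTg library in both. Endothelial-like cells had 92.7 and 88.5 CPM. Apc encodes the scaffold of the degradation complex and was also higher in TripleTg cells, at 66.6 against 45.6 CPM in luminal-like and 85.9 against 50.6 CPM in basal-like cells. Gsk3b, the kinase gene, differed least between genotypes. It was at 157 and 137 CPM in luminal-like cells and at 127 and 134 CPM in basal-like cells.

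Cd44 encodes the hyaluronan receptor and is known both as a basal and stem cell marker and as a Wnt target. It was at 242 CPM (239.9 to 244) in DoubleTg and 449 CPM (445 to 452) in TripleTg luminal-like cells, a 1.85-fold higher level, and at 327 and 412 CPM in basal-like cells. At 5000 UMIs, 55.8% of DoubleTg and 83.5% of TripleTg luminal-like cells had a Cd44 UMI. In the classes with the lowest Cd44 this share was also higher in the TripleTg library, at 8.99% and 20.1% of seminal vesicle-like and 8.75% and 28.6% of endothelial-like cells. Macrophage-like cells, which are known to express Cd44, had 283 and 423 CPM, and fibroblast-like cells 242 and 304 CPM. The summed level of the 10 epithelial markers was also higher in the TripleTg library in both of these classes, at 753 and 1963 CPM in macrophage-like and 845 and 5219 CPM in fibroblast-like cells, and its part in the Cd44 values was not tested. The 3′ counts do not separate the splice forms of Cd44.

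The first comparison asked whether luminal-like cells of the TripleTg library, with the Ctnnb1 exon 3 allele, differ in these genes from those of the DoubleTg library. The ratios compare unlike mixes of clusters. Clusters led by Sbp, Msmb, Alb or Spink5 were in the DoubleTg class, and those led by Rnase1, Apoc4, Fam213a or Defb6 in the TripleTg class. Both classes had clusters led by 9530053A07Rik and by Ube2c. Cdh1 (log2 ratio −0.90, interval −0.92 to −0.88), Epcam (−0.48), Ctnnb1 (−0.40), Jup (−0.32) and Gsk3b (−0.20) were lower in the TripleTg library, and Cd44 (0.89, interval 0.87 to 0.91), Apc (0.55), Ctnnd1 (0.43) and Ctnna1 (0.33) were higher. Of the 9 members with at least 5 CPM in either library, 0 were past 2-fold, against 23.7% of the 9055 genes tested in these cells. The median of the members was −0.20, and that of all genes tested 0.02. Cdh3 was left out for its low level (−1.45, on 23 and 98 UMIs). Of the 9 members tested, Cdh1 and Cd44 lay closest to the threshold. Cdh1 was past it with the composition-adjusted TMM factors (−1.02), at 5000 UMIs per cell (−1.01), with genes of 5000 CPM or more left out of the totals (−1.001), and without the DoubleTg cluster led by Sbp (−1.06).

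In basal-like cells the ratios were −0.61 for Cdh1, −0.83 for Epcam, −0.29 for Ctnnb1, −0.33 for Jup, −0.31 for Ctnna1 and −1.04 (interval −1.20 to −0.87) for Cdh3, and 0.76 for Apc, 0.65 for Ctnnd1, 0.34 for Cd44 and 0.081 for Gsk3b. Cdh3 alone of the 10 was past 2-fold, against 27.9% of the 9118 genes tested. The median of the members was −0.30 and that of all genes −0.05. These ratios come from the same libraries as those of luminal-like cells, and Ctnna1 and Gsk3b lay on the other side of 0 there. The Cdh3 ratio was −0.42 with each cluster weighted equally and −1.59 without the TripleTg basal-like cluster led by Mt4, so its size depends on which basal-like cells are counted.

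**Figure D2:**
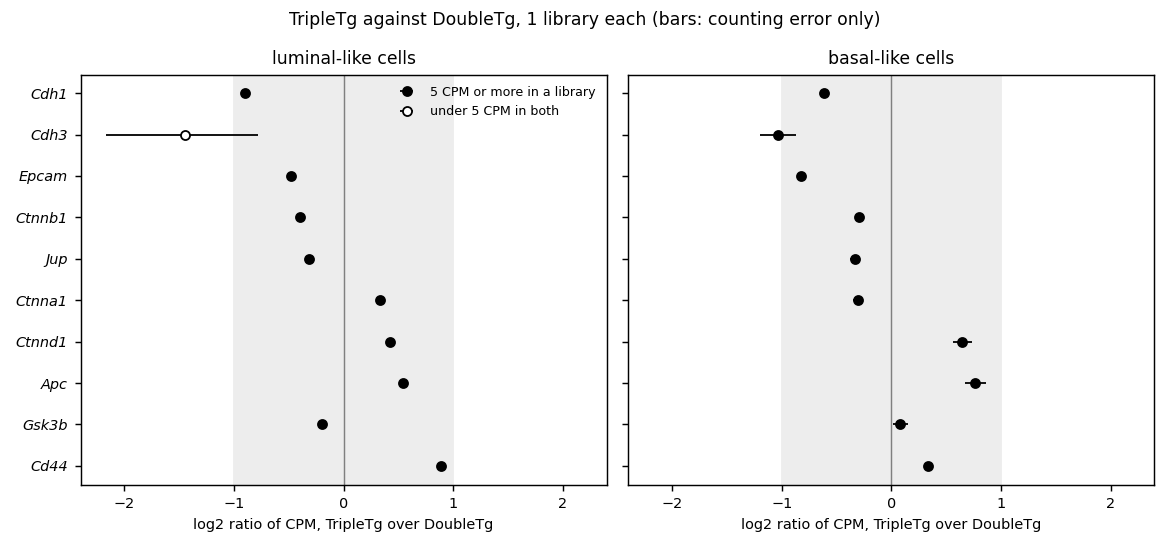
Log2 ratio of CPM, TripleTg over DoubleTg (horizontal axis), for each gene (rows) in luminal-like (left) and basal-like (right) cells, 1 library each; lines are 95% intervals for counting error only, the grey band spans 2-fold in either direction, and the open circle is a gene under 5 CPM in both libraries. Cdh1, Epcam, Ctnnb1 and Jup lie left of 0 and Ctnnd1, Apc and Cd44 right of 0 in both classes, and Ctnna1 and Gsk3b change side.

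Beyond the class means, the luminal-like clusters of the DoubleTg library spread widely. Cd44 ran from 18.8 to 420.0 CPM over its 10 clusters (22.4-fold), Ctnnb1 from 115 to 705 CPM and Cdh1 from 201 to 936 CPM. Over the 7 TripleTg luminal-like clusters these genes ran from 339 to 596 CPM for Cd44, 194.9 to 302 CPM for Ctnnb1 and 225 to 458 CPM for Cdh1, a smaller spread, whereas that of Jup was alike (2.84-fold, against 2.76-fold in the DoubleTg library). For all 10 members the cluster ranges of the libraries overlapped in luminal-like cells, whereas they did not for 13.7% of the genes tested. Clusters of a library are not replicates, so these ranges are descriptions.

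The lowest DoubleTg values of Cdh1, Ctnnb1, Ctnna1, Ctnnd1, Jup, Epcam, Apc, Gsk3b and Cd44 came from the same cluster, 570 cells led by the secretory genes Sbp and Sbpl. In that cluster 62.8% of the UMIs belonged to the 117 genes that reached 5000 CPM in any cluster, which lowers the CPM of every other gene. With those genes left out of the total, its Cdh1 was at 539 CPM, Jup at 374 CPM and Ctnnb1 at 308 CPM. The other 9 clusters had 618 to 1358 CPM of Cdh1 and 365 to 1023 CPM of Ctnnb1 on that scale, and 208 to 636 CPM of Cd44, whereas the Sbp-led cluster had 50.4 CPM of Cd44. Its low Cd44 thus remained on this scale. The highest values of Ctnnb1 and Cdh1 came from 144 cells led by Gsdmc2 and Cyp2f2 (705 and 936 CPM), where hMETtg was at 90.0 CPM, the lowest of the 10.

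In basal-like cells the 2 DoubleTg clusters were alike, with Cdh1 at 467 and 485 CPM, and the 4 TripleTg clusters of at least 50 cells had 192 to 386 CPM, which does not overlap. Ranges did not overlap either for Jup and Epcam, lower in the TripleTg clusters, and for Ctnnd1 and Apc, higher there. These 5 of 10 members stand against 42.9% of the genes tested, a like share. The lowest Cdh1 (192 CPM) and Epcam (770 CPM, interval 751 to 789) of the TripleTg basal-like clusters were in 321 cells led by Mt4 and Igfbp2. Their 10 leading genes hold the skin and hair follicle genes Sprr1b, Asprv1, Krt42 and Gprc5d and none of the 8 basal markers. The cluster is named basal-like by the fold of its basal markers over the other cells of the library. Without it the basal-like genotype ratio was −0.42 in place of −0.61 for Cdh1 and −0.62 in place of −0.83 for Epcam. These cells had the highest Ctnnb1 (365 CPM), Axin2 (133 CPM) and Nkd1 (168 CPM) of the 4 clusters. Cdh3 was at 28.4 CPM there, and at 46.5 CPM (32.6 to 64.4) in 87 cells led by Clca3a2, against 12.6 and 5.26 CPM in the remaining clusters. Cd44 was highest (483 CPM) in 450 cells led by Ifi202b and Il33.

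The TripleTg seminal vesicle-like class was made of 2 unlike clusters. In 143 cells led by Sva and Ceacam10, 82.2% of UMIs belonged to the abundant genes, and Cdh1 was at 51.8 CPM and Ctnnb1 at 31.9 CPM. The other 443 cells, led by Crisp1, had 245 CPM of Cdh1 and 82.0 CPM of Ctnnb1. With the abundant genes left out, Cdh1 was at 291 and 584 CPM in these clusters and at 577 CPM in the DoubleTg seminal vesicle-like cluster. The seminal vesicle markers alone made up 364188 and 440817 CPM of this class, so its low values for the members are also shares of a total that these few genes fill.

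**Figure D3:**
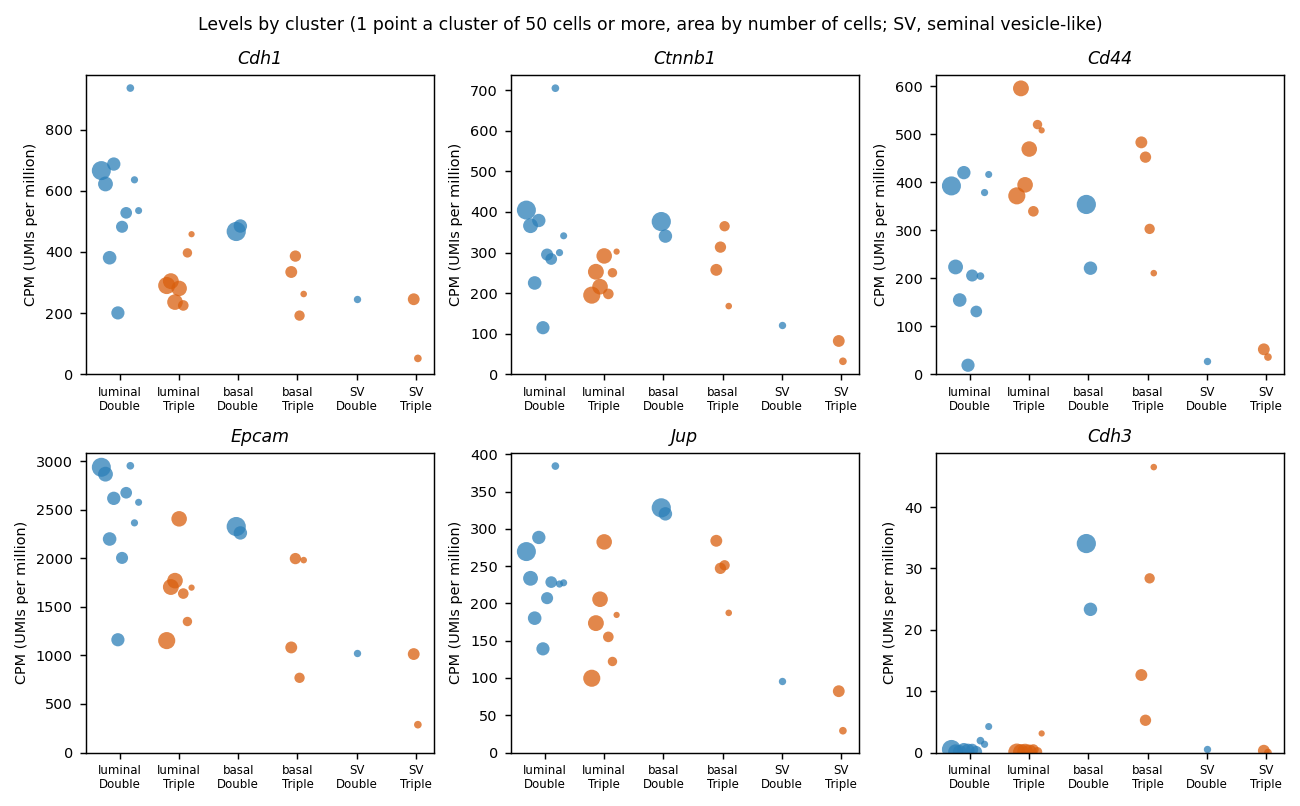
CPM (vertical axis, from 0) of 6 genes in each cluster of at least 50 cells in the luminal, basal and seminal vesicle (SV) classes; each point is a cluster, its area grows with the number of cells, and blue is DoubleTg and orange TripleTg. Basal-like clusters separate by library for Cdh1 (467 and 485 against 192 to 386 CPM), luminal-like clusters overlap, and Cd44 of the Sbp-led DoubleTg cluster is close to 0 (18.8 CPM).

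The next comparison set basal-like against luminal-like cells within each library. Clustering used variable genes among which none of the 10 members was, but the classes follow genes that vary with them, so these ratios are descriptions. Cdh3 was higher in basal-like cells by 6.01 on the log2 scale (interval 5.71 to 6.33) in the DoubleTg and 6.42 (5.82 to 7.09) in the TripleTg library. The luminal-like level under these ratios cannot be told apart from that of macrophage-like cells, so their size is uncertain beyond the counting error that the intervals cover. Cdh3 was the only member past 2-fold in either library, 1 of 10, against 39.0% of 9200 genes in the DoubleTg and 17.8% of 9044 genes in the TripleTg library. It reached the 5 CPM minimum only through the basal-like cells, so its call follows from the filter and is a description. Jup (0.52 and 0.51) and Ctnnb1 (0.24 and 0.35) were higher in basal-like cells of both libraries, and Epcam was lower (−0.05 and −0.40). Apc was at 0.15 and 0.37, and its DoubleTg ratio was −0.01 with TMM factors.

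The libraries differed in this contrast for several members. Ctnna1 was higher in basal-like cells of the DoubleTg library by 0.64 and level in the TripleTg library (0.00). Cd44 was at 0.43 and −0.12, and Cdh1 at −0.17 and 0.12. The TripleTg ratio of Cd44 was 0.02 without the Mt4-led cluster, and that of Cdh1 was −0.13 with clusters weighted equally. Gsk3b was at −0.31 and −0.03 and Ctnnd1 at −0.21 and 0.01. The difference between libraries was not tested for any member.

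**Figure D4:**
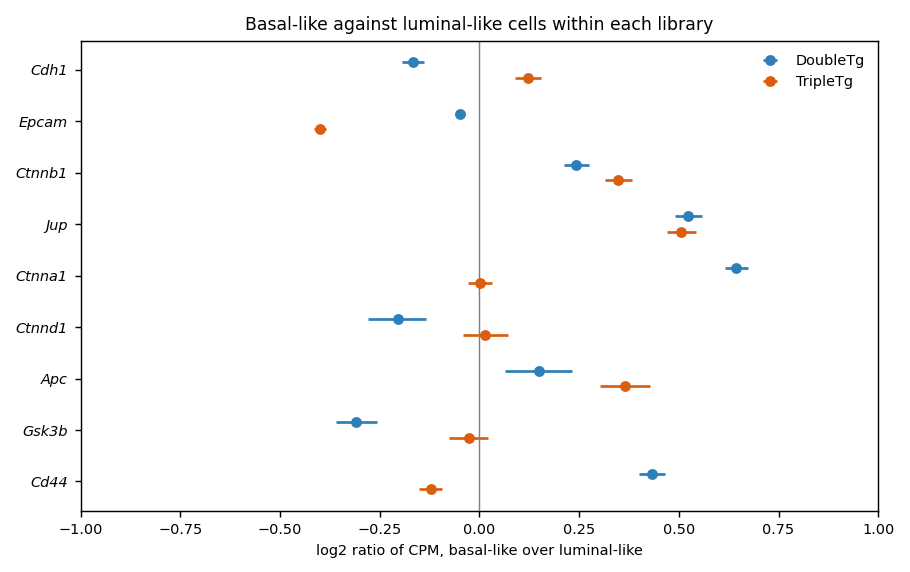
Log2 ratio of CPM, basal-like over luminal-like (horizontal axis), for 9 genes (rows) within the DoubleTg (blue) and TripleTg (orange) library; lines are 95% intervals for counting error only, and Cdh3 (6.01 and 6.42) lies off the axis. Jup and Ctnnb1 lie right of 0 in both libraries, and Cdh1 and Cd44 lie on opposite sides in the 2 libraries, except that TripleTg Cdh1 is at −0.13 with equal cluster weights and TripleTg Cd44 at 0.02 without the Mt4-led cluster.

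Whether the members go with hMETtg or Axin2 UMIs from cell to cell was examined in luminal-like cells thinned to 5000 UMIs. In the DoubleTg library 3278 cells (68.0%) had an hMETtg UMI and 1542 had none, while 7.95% of macrophage-like, 7.56% of fibroblast-like and 15.6% of endothelial-like cells had one. These other classes held hMETtg UMIs too, and their source was not tested. A UMI alone thus does not show that a luminal-like cell expresses the transgene. Cd44 was at 298 CPM in cells with and 158 CPM in cells without an hMETtg UMI (log2 ratio 0.91, interval 0.82 to 1.01). Within clusters, weighted over all 10, the ratio was 0.50, and it was above 0 in each (0.04 to 1.55). Over the 8711 genes compared in the same split the median was 0.08, and 1.07% had a higher ratio than Cd44. The other members were at 0.09 (Apc) to 0.31 (Cdh1) in the pooled cells, and at −0.06 to 0.23 within clusters. In the TripleTg library 9.77% of luminal-like cells had an hMETtg UMI, against 14.5% of fibroblast-like, 1.21% of macrophage-like and 2.48% of endothelial-like cells. Cd44 was at 0.20 (interval 0.10 to 0.29) in the pooled cells of that split and at 0.11 within clusters (−0.06 to 0.31). Over the 8634 genes compared the median was 0.02, and 26.0% had a higher ratio than Cd44. The other members were at −0.01 (Gsk3b) to 0.29 (Jup) in the pooled cells. A cell without a UMI at this depth may still express the transgene.

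In the TripleTg library 1181 luminal-like cells (29.1%) had an Axin2 UMI and 2881 had none, against 4.85% of macrophage-like and 13.7% of fibroblast-like cells with one. Ctnnb1 was at 0.19 (interval 0.10 to 0.28), Cdh1 at 0.16 and Cd44 at 0.20 in cells with over cells without an Axin2 UMI, and the intervals of Epcam (0.03) and Apc (0.14) included 0. Over the 7 clusters Ctnnb1 ran from −0.21 to 0.35 and Cd44 from −0.11 to 0.40, on both sides of 0, and Cdh1 from 0.08 to 0.30. The median over the 8498 genes compared was 0.04, and 21.6% had a higher ratio than Cd44. These are small differences between cells of 1 library. In the DoubleTg library 38 cells had an Axin2 UMI, too few for the comparison within clusters. Cdh3 was left out of these comparisons for its low level.

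**Figure D5:**
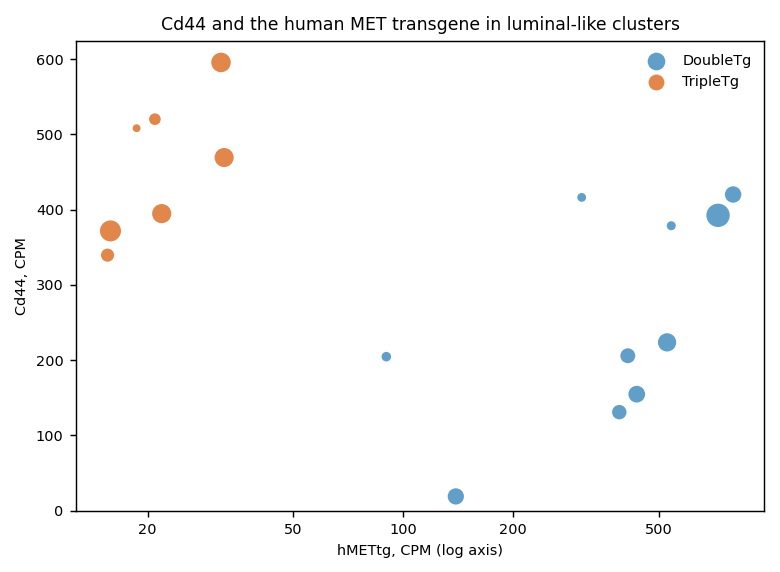
Cd44 (vertical axis, CPM) against hMETtg (horizontal log axis, CPM) in the 10 DoubleTg (blue) and 7 TripleTg (orange) luminal-like clusters; point area grows with the number of cells. TripleTg clusters have hMETtg at 15.5 to 32.4 CPM and Cd44 at 339 to 596 CPM, and the DoubleTg clusters span 18.8 to 420.0 CPM of Cd44.

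Detection of the whole cadherin complex in 1 cell was counted at 5000 UMIs as a UMI of each of Cdh1, Ctnnb1, Ctnna1 and Ctnnd1. This share was 17.8% (interval 16.7 to 18.9) of DoubleTg and 16.3% (15.1 to 17.4) of TripleTg luminal-like cells, and 16.4% of the basal-like cells of both libraries. Seminal vesicle-like cells were at 3.37% and 3.87%, and macrophage-like cells at 0.379% and 0.243%. Ctnnd1 was the least detected of the 4, in 31.2% and 38.6% of luminal-like cells, and a missing UMI does not show that a gene is off. None of the 4 was detected in 2.72% and 2.19% of luminal-like cells.

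Across 48 clusters of at least 50 cells, 24 of each library, the genes whose log2(CPM + 1) followed that of Cdh1 most closely among 10231 were Foxa1 (Pearson r = 0.97), a transcription factor of prostate epithelium, Cxadr (0.95), Lsr (0.95) and Marveld2 (0.95), which are genes of tight and tricellular junctions, and Epcam (0.94). Of the other members, Jup (0.84) followed Cdh1 more closely than Ctnnb1 (0.54) did, and Cdh3 (0.04) least. For Cdh3 the closest were Pvrl1 (0.89), the older symbol of the nectin-1 gene, Rgs12 (0.88), Snai2 (0.87), Celf4 (0.85) and Dlk2 (0.85). For Ctnnb1 they included Arfgef1 (0.88), Zdhhc5 (0.86), Fbxo28 (0.85) and Pcbp1 (0.85), and Gsk3b (0.77) was the closest member. These correlations are descriptions over clusters that share libraries, depth and total composition.

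Further genes of the same pathways were read from lists in luminal-like cells, TripleTg over DoubleTg. Of 23 other cadherin, catenin and nectin genes, 14 reached 5 CPM in either library, 5 of them were past 2-fold higher and 0 lower. A gene under 5 CPM in one library enters such a count only by being higher in the other, so the counts of calls over these lists are descriptions and support no direction. Here that holds for Ctnnd2 and Nectin3. For this and the lists that follow, the share of all genes tested was 23.7% in luminal-like cells (11.7% higher) and 27.9% in basal-like cells. The 4 highest were Ctnnd2 (4.29), the gene of δ-catenin, at 0.642 and 12.5 CPM in the DoubleTg and TripleTg cells, Nectin3 (3.37), at 2.94 and 30.3 CPM, Cdh17 (1.58), the gene of LI-cadherin, and Nectin4 (1.55). Cdh2, the gene of N-cadherin, was at 0.258 and 0.395 CPM and Cdh11, another mesenchymal cadherin gene, at 0.101 and 0.395 CPM. In basal-like cells Ctnnd2 (2.84), Cdh17 (3.31) and Nectin4 (3.19) were past 2-fold higher and Ctnnal1 (−1.87) lower, where Ctnnd2 and Cdh17 were under 5 CPM in the DoubleTg class. Markers of other cells differed between these basal-like classes: the seminal vesicle markers summed to 141 CPM in the DoubleTg class, with 4 of 8 at 0, and 3122 CPM in the TripleTg class, the fibroblast markers to 1273 and 223 CPM, the neutrophil markers to 14.9 and 68.9 CPM and the B and plasma cell markers to 1.49 and 50.9 CPM. Their part in the basal-like values was not tested.

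Of 8 desmosome genes measured in luminal-like cells, Pkp1 (1.73), Dsc2 (1.30) and Ppl (1.22) were past 2-fold higher and Evpl (−2.27, under 5 CPM in the TripleTg class) lower, 4 of 8 against 23.7% of all genes. In basal-like cells 4 of 9 were past 2-fold, all higher, against 27.9% of all genes, with Dsg3, a desmoglein of stratified epithelium, at 1.26 CPM in the DoubleTg and 83.4 CPM in the TripleTg library (6.05). Dsg3, Pkp2 (1.35) and Evpl (1.05) entered that count only through the TripleTg library. Evpl thus lay on opposite sides of 0 in the 2 classes. Of 12 genes of the degradation complex and β-catenin turnover, Csnk1e (1.60), a casein kinase gene, was past 2-fold higher and Btrc (−1.14), a ubiquitin ligase subunit for β-catenin, lower, whereas Axin1 (0.03) and Gsk3a (0.00) were level. These are 2 of 12, against 23.7% of all genes. In basal-like cells Btrc was on the other side of 0 (1.02, interval 0.71 to 1.34), at 4.65 and 9.46 CPM. Of 15 genes of nuclear β-catenin partners, Bcl9 (2.52), the gene of a co-activator that binds β-catenin, was at 7.30 and 41.8 CPM and Tle4 (−1.27), a co-repressor gene, was lower, 2 of 15 against 23.7% of all genes. Bcl9 was also at 9.69 and 94.3 CPM in basal-like cells (3.28).

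The list of genes linked to epithelial-mesenchymal transition had 5 of 8 measured genes past 2-fold higher in luminal-like cells, against 11.7% of all genes: Zeb2 (4.86, 1.45 and 42.2 CPM), S100a4 (3.97, 1.31 and 20.5 CPM), Vim (2.43, 2.67 and 14.4 CPM), Fn1 (2.21, 2.16 and 10.0 CPM) and Ovol1 (1.47). Apart from Ovol1, these were under 5 CPM in the DoubleTg library and entered only through the TripleTg library, so their count is a description. Zeb2 is a known repressor of Cdh1, and Ovol1 is known to act against this transition. Zeb1, another known repressor of Cdh1, was under the 5 CPM minimum at 0.566 and 1.62 CPM (1.52, interval 1.18 to 1.86), and Snai1, Snai2, Twist1 and Twist2 were under 1 CPM in both. In basal-like cells 4 of 10 were past 2-fold higher and 1 lower, against 27.9% of all genes past it. These were S100a4 (6.05, at 7.86 and 521 CPM), Zeb2 (4.73), Vim (1.70), Esrp1 (1.16) and Twist2 (−1.59). Zeb2 and Twist2 were under 5 CPM in 1 of the classes. Esrp1 lay on the other side of 0 in luminal-like cells (−0.44). Markers of other cells moved with this list: within luminal-like cells the 7 fibroblast markers summed to 35.4 CPM in the DoubleTg and 149.5 CPM in the TripleTg library, the 6 neutrophil markers to 1.97 and 37.8 CPM, the 7 macrophage markers to 9.19 and 16.8 CPM, the 8 endothelial ones to 3.94 and 11.1 CPM and the 5 B and plasma cell markers to 6.95 and 28.4 CPM, with none of these genes at 0. The 8 seminal vesicle markers summed to 77.0 CPM, with 1 of them at 0, and to 1357 CPM. Smooth muscle markers went the other way (8.58 and 5.66 CPM), as did, by little, T/NK (3.04 and 2.71 CPM) and dendritic markers (2.58 and 2.45 CPM). The part of all these markers in the result was not tested.

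Of 9 partners of Cd44 and Epcam, Spp1 (2.09, at 1.60 and 6.82 CPM), the gene of the Cd44 ligand osteopontin, and Msn (1.51), which encodes moesin that ties Cd44 to actin, were past 2-fold higher, a share near the 23.7% of all genes. Ezr, the gene of the related ezrin, was at 1254 and 702 CPM (−0.84), and Cldn7, whose product binds Epcam, at 844 and 559.9 CPM (−0.59). In basal-like cells Cldn7 was higher in the TripleTg library (1.42), the opposite of Epcam there (−0.83).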

How the data were processed

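The deposited files give, per cell and gene, raw UMI counts that the authors obtained with Cell Ranger (6.0.2 in the submitters' processing notes, 6.1.1 in the header of the DoubleTg matrix) from reads aligned to mm10 plus the hHGFtg and hMETtg sequences. All TripleTg cells already met the study's limits. The cell number that the study states for the DoubleTg library is not the one these limits leave in the deposited file, so the cells kept here are not exactly its set. Cells of either library were kept with more than 200 and fewer than 7000 genes and a mitochondrial share below 15%.

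Clustering was done separately for the libraries in scanpy 1.11.5 (2000 variable genes, 20 principal components, 15 neighbours, Leiden resolution 1). Clusters were named from marker lists, with thresholds set after the clusters had been seen. A non-epithelial name needed a mean log2 fold of its markers of at least 2, and an epithelial one 6 of 10 markers in at least 0.5 of cells. A basal name also needed a mean log2 fold of its markers of at least 1.5 over the library's other cells. Of its 8 markers, 5 had to be more than 2-fold higher there. A luminal name needed 5 of 11 markers in at least 0.5 of cells, with fewer than 5 basal markers at that share. Shallow clusters (median UMIs far below the library's; 1440 DoubleTg and 1093 TripleTg cells) and mixed ones (260 and 289 cells) stayed unnamed, except a TripleTg fibroblast-like (310 cells) and a glial-like one (25 cells) that are shallow but have markers of their class among their 10 leading genes. Doublets were marked by Scrublet scores over 0.25 (2.34% and 1.04% of cells) and kept, and an alternative left them out.

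UMIs were summed per class and given as CPM. Intervals (95%) are exact Poisson for sums, Clopper-Pearson for shares and conditional binomial for ratios, and cover counting error only. A gene entered a comparison at 5 CPM in either group and was called past 2-fold. A sum of 0 was set to 3 counts in a ratio. Thinning to 5000 UMIs left out 2171 DoubleTg and 1699 TripleTg cells. edgeR 4.0.16 gave the TMM factors only. Ratios were tested on simulated data with known changes. No test between genotypes was possible with 1 library each. Positions are from GENCODE M21 on GRCm38, matched for 27645 of 28000 features; 7 listed genes were found under an older symbol and 1 had no feature.

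The genes named are the 10 members, the genes past 2-fold in luminal-like cells from each list (at most 4 in each direction) and the 5 genes most correlated with Cdh1, Cdh3 and Ctnnb1, of which 1 is not reported here; Ovol1 and further list genes named for their level or for basal-like cells were chosen after their values were seen. The members and lists were chosen with earlier results of these data known.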

Additional observations from a re-analysis of the deposited data

Results flagged for a closer look

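For 4 members a contrast pointed in opposite directions in the groups compared, with counting intervals on opposite sides of 0. Basal-like over luminal-like, the log2 ratio of Cdh1 was 0.12 in the TripleTg and −0.17 in the DoubleTg library, and that of Cd44 was −0.12 and 0.43. TripleTg over DoubleTg, the ratio of Ctnna1 was 0.33 in luminal-like and −0.31 in basal-like cells, and that of Gsk3b was −0.20 and 0.081. None of these differences was tested, since each value rests on 1 library per genotype. The TripleTg values of Cdh1 and Cd44 also depend on how clusters are weighted or which are counted, with −0.13 for Cdh1 at equal cluster weights and 0.02 for Cd44 without the Mt4-led cluster.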

How the results depend on the processing

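No paired analysis was possible because each genotype has 1 library. In luminal-like cells, TripleTg over DoubleTg, the number of members past 2-fold was 0 and became 1 with TMM factors, at 5000 UMIs per cell, with genes of 5000 CPM or more left out of the totals and without the Sbp-led DoubleTg cluster (Cdh1 in each), and 1 with no minimum CPM (Cdh3). In basal-like cells it was 1 (Cdh3) and became 0 at 5000 UMIs per cell and with clusters weighted equally. For TripleTg basal-like over luminal-like cells it was 1 (Cdh3) and became 0 with a minimum of 20 CPM, which Cdh3 does not reach. The alternatives without abundant genes, without the Sbp-led or the Mt4-led cluster, with the hair follicle gene-led cluster counted as luminal-like and with cells of at least 10000 UMIs were chosen after seeing the data. Apart from the minimum, the cause was not tested. TMM factors moved the median of all genes in luminal-like cells from 0.02 to −0.09. The genotype ratios of all 10 members kept their direction under all 16 alternatives in luminal-like and all 12 in basal-like cells. Small basal-like over luminal-like ratios changed sign: Apc in the DoubleTg library with TMM factors, and in the TripleTg library Cdh1, Cd44, Ctnna1, Ctnnd1 and Gsk3b in 1 to 4 of 13 alternatives each. Depth limits Cdh3, whose luminal-like level rests on 98 and 23 UMIs.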
